A study of Mus musculus with 6 samples.

Results

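The mitochondrial genome transcripts are the 37 rows of the count table whose gene symbol starts with mt-, out of 47643 rows in all. They comprise 13 messenger RNAs, 2 ribosomal RNAs and 22 transfer RNAs, which is the gene content of the annotated mouse mitochondrial chromosome. Their RNA was sequenced in 6 libraries of NKT1 thymocytes of the genotype WT BALB/c, isolated by flow cytometry, 3 of the CD4-positive and 3 of the CD4-negative kind. The labels give no treatment, further allele or age. NKT1 cells are the T-bet-expressing subset of invariant natural killer T (iNKT) cells, T cells with a nearly fixed receptor for lipids presented by CD1d, and nothing in the labels says that the 3 libraries of a group came from separate animals. Below, 6 values in a row always follow the order of replicates 1, 2 and 3 in each group.

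Mitochondria keep a small circular genome whose messenger RNAs encode core subunits of the respiratory chain and of ATP synthase, while the other subunits are encoded in the nucleus and imported. A single RNA polymerase, POLRMT, transcribes both strands as long precursors, which are cut mainly at the transfer RNAs and then tailed, stabilised or degraded transcript by transcript. T cells draw on mitochondrial respiration for survival and memory, and the share of mitochondrial reads is also a common measure of library quality. Nuclear genomes carry inserted copies of mitochondrial DNA, and reads from a mitochondrial transcript can match such a copy.

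Of the 13 messenger RNA members, 7 shared most or part of their sequence with a pseudogene row on chromosome 1. The 7 pseudogenes, Gm29216, Gm28661, Gm10925, Gm28437, Gm28438, Gm10222 and Gm28439, lie side by side between 24611535 and 24616197 on the minus strand (GRCm38), in the order of mt-Co1, mt-Co2, mt-Atp6, mt-Co3, mt-Nd3, mt-Nd4l and mt-Nd4. The spacing between neighbours was the same as in the mitochondrial genome in 5 of 6 adjacent pairs. Between the copies of mt-Co2 and mt-Atp6 lie 233 bases that hold no other copy found here. As many separate the shared parts of mt-Co2 and mt-Atp6 on the mitochondrial chromosome, where mt-Atp8 lies. The copies of mt-Co2, mt-Atp6, mt-Co3, mt-Nd4l and mt-Nd4 had 0 mismatches over 681, 678, 783, 294 and 876 bases. For the first 3 of these that is 99.6%, 99.6% and 99.9% of the member, and for mt-Nd4 63.6%. The first 90 bases of mt-Co3 and of its copy, shown because a read from within them can be assigned to either, are the same on chrM and chromosome 1.
mt-Co3 (chrM:8607-8696, plus strand): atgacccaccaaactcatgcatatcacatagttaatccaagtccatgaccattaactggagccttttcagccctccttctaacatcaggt
Gm28437 (chr1:24613882-24613971, minus strand): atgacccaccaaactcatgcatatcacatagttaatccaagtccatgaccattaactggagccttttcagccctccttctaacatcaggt

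Only the copies of mt-Co1 and mt-Nd3 differed from their members. Gm29216 copies the last 492 bases of mt-Co1, 31.8% of its length, with 6 mismatches, all near the start of the copy. Gm28438 has 1 mismatch to mt-Nd3 over 345 bases, T3C counted from the first base of mt-Nd3. Those of mt-Co1 are T1056A, C1057T, A1059G, A1060G, C1062A and A1066T, counted from its first base. The first 60 bases of each copy and the same bases of the member are shown because they hold every mismatch, in capitals.
mt-Co1 (chrM:6381-6440, plus strand): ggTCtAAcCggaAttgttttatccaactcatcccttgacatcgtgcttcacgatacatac
Gm29216 (chr1:24616138-24616197, minus strand): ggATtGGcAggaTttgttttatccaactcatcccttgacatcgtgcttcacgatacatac
mt-Nd3 (chrM:9459-9518, plus strand): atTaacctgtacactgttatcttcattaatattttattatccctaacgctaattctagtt
Gm28438 (chr1:24613060-24613119, minus strand): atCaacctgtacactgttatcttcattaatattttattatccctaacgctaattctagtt

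These sequences are those of the reference annotation (GENCODE release M21, GRCm38), and the sequence of the BALB/c animals was not analysed here. All 7 members with a copy had fractional estimated counts in 6 of 6 libraries, and the 8 other members with more than stray counts had whole numbers in 6 of 6, to within 1e-06 of a count. A fractional count arises where a read is divided between rows. Levels of members with a copy are therefore given below both as counted and with the counts of the copy added. Where the sequences are identical, reads from the nuclear block cannot be told apart from mitochondrial reads.

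Most counts of mt-Co2, mt-Atp6, mt-Co3 and mt-Nd3 were on the nuclear copy. Of the counts of mt-Co2 and Gm28661 together, the copy held 90.6, 94.6 and 92.9% in CD4-positive and 95.01, 93.1 and 87.6% in CD4-negative libraries. For mt-Atp6 the copy Gm10925 held 91.4, 95.7 and 92.0% in CD4-positive and 94.5, 95.2 and 84.5% in CD4-negative libraries. For mt-Co3 the copy Gm28437 held 81.8, 94.9 and 95.9% in CD4-positive and 96.1, 95.2 and 93.4% in CD4-negative libraries. The share on the copy was thus high in every library for these pairs, with the lowest value for mt-Co3 in CD4-positive replicate 1 and the lowest for mt-Co2 and mt-Atp6 in CD4-negative replicate 3. The copy of mt-Nd3 held 83.3% to 96.96% of the pair, that of mt-Co1 9.71% to 19.7% and that of mt-Nd4 0.0724% to 0.979%. Gm10222, the copy of mt-Nd4l, varied most: it held 37.4, 64.4 and 80.7% in CD4-positive and 77.4, 74.3 and 1.20% in CD4-negative libraries. In CD4-negative replicate 3 this copy had 5 counts, against 461 to 19079 in the other libraries.

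**Figure D1:**
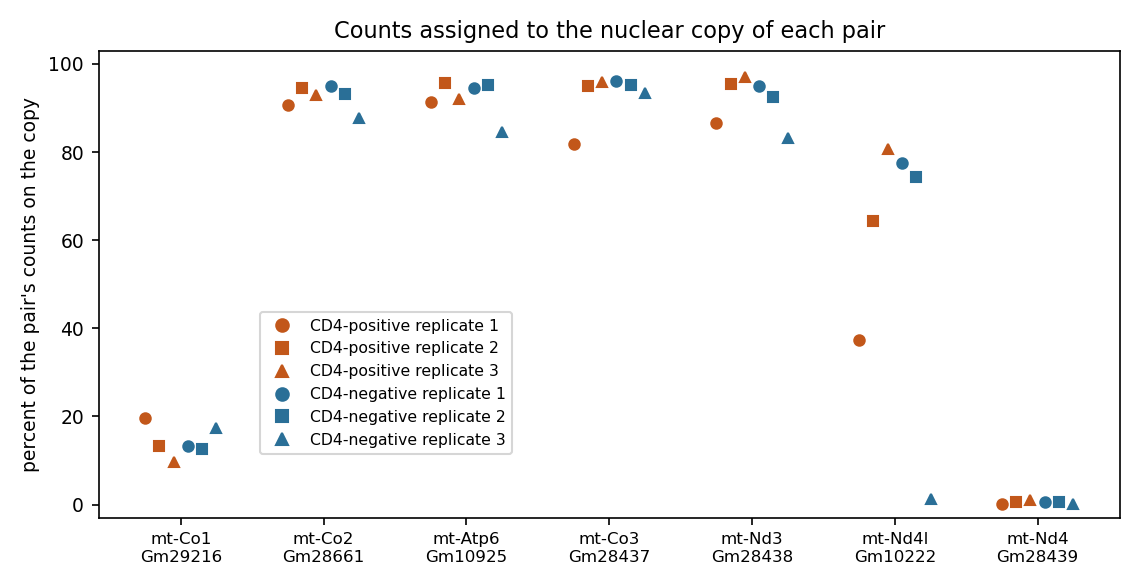
Percent of the counts of each member and its nuclear copy that the table assigns to the copy, for 7 pairs (horizontal axis) in 6 libraries (points; colour is the CD4 group, shape the replicate). The copies of mt-Co2, mt-Atp6, mt-Co3 and mt-Nd3 hold 81.8% or more in every library, and that of mt-Nd4l runs from 1.20% to 80.7%.

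Among the mitochondrial messenger RNAs several overlap on the chromosome, shown here because the bases of the overlap (capitals) belong to both genes. mt-Atp8 and mt-Atp6 share 43 bases on the same RNA, mt-Nd4l and mt-Nd4 share 7, and mt-Nd5 and mt-Nd6 share 14 at their 3′ ends on opposite strands. The counts of mt-Atp8, mt-Nd5 and mt-Nd6 were whole numbers in every library, so they show no division of reads with the gene each overlaps. The libraries were made with a stranded kit, but the strand setting of the counting is not given in the sources used here. Reads of mt-Nd6 could therefore not be told apart from RNA antisense to mt-Nd6, nor reads of mt-Nd5 from RNA antisense to mt-Nd5.
mt-Atp8 and mt-Atp6 (chrM:7915-7981, plus strand): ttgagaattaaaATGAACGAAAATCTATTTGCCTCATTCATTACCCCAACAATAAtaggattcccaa
mt-Nd4l and mt-Nd4 (chrM:10155-10185, plus strand): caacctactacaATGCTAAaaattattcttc
mt-Nd5 and mt-Nd6 (chrM:13540-13565, plus strand): tcttatactcaaTTAATCTCGAGTAA

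As a share of all counts, the members took 1.35, 5.19 and 5.09% in CD4-positive and 3.51, 5.12 and 1.33% in CD4-negative libraries. CD4-positive replicate 1 and CD4-negative replicate 3 were the lowest libraries, one in each group, and the groups overlapped. The group means were 3.88% ± 2.19 against 3.32% ± 1.91 (SD, n = 3; exact 2-sided permutation p = 0.7, where 3 against 3 libraries can give no p below 0.1). The 95% Clopper-Pearson interval of a share was narrow, 1.34% to 1.35% in CD4-positive replicate 1 and 5.18% to 5.19% in CD4-positive replicate 2, and covers counting error only. With the copies added this share was 2.48, 7.69 and 7.93% in CD4-positive and 5.39, 7.64 and 2.76% in CD4-negative libraries. The same libraries were low, and the ratio of the highest to the lowest library was 3.20 in place of 3.91. Group means with copies were 6.03% ± 3.08 against 5.26% ± 2.44 (SD, n = 3; exact permutation p = 0.7). These are shares of the RNA in bulk samples, so less mitochondrial RNA per cell, more nuclear RNA per cell and fewer cells of a type cannot be told apart.

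**Figure D2:**
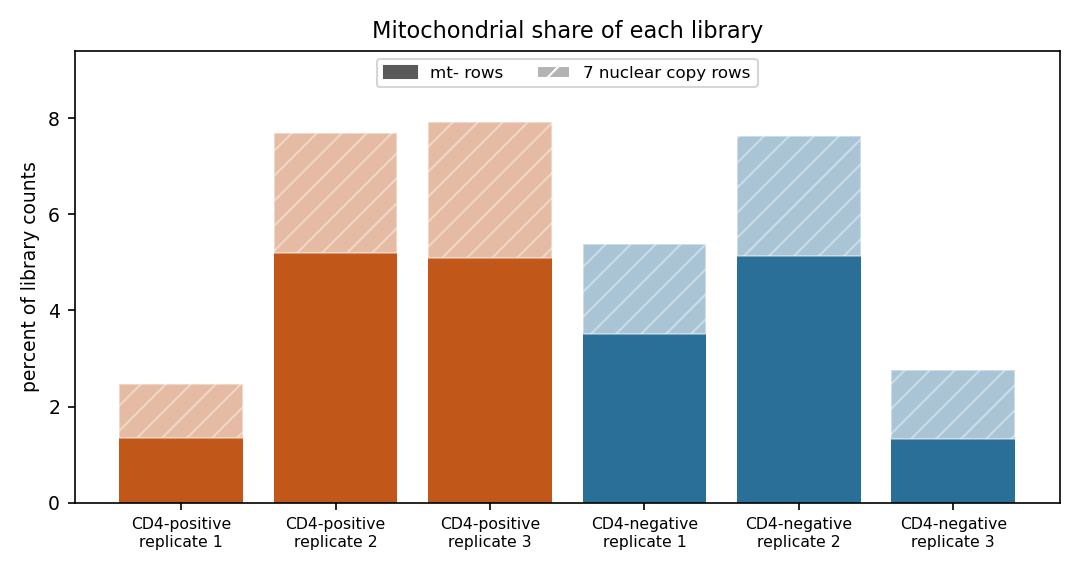
Percent of each library's counts on the mt- rows (solid) and on the 7 nuclear copy rows (hatched), for 3 CD4-positive and 3 CD4-negative libraries. CD4-positive replicate 1 and CD4-negative replicate 3 reach 2.48% and 2.76% with both added, and the other libraries 5.39% to 7.93%.

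The ribosomal RNAs, the scaffolds of the small and large subunits of the mitochondrial ribosome, were the steadiest members. mt-Rnr1 (12S) stood at 339, 457 and 443 CPM in CD4-positive and 357, 426 and 376 CPM in CD4-negative libraries, where CPM are counts scaled to a common library total with TMM factors. mt-Rnr2 (16S) stood at 869, 1073 and 832 CPM in CD4-positive and 944, 915 and 754 CPM in CD4-negative libraries. The highest library was 1.35 times the lowest for mt-Rnr1 and 1.42 times for mt-Rnr2. The groups overlapped for both (mt-Rnr1 log2 0.10, SE 0.18, unadjusted p = 0.605; mt-Rnr2 log2 0.09, SE 0.18, unadjusted p = 0.654, by edgeR's quasi-likelihood test). The library kit selects polyadenylated RNA, so these levels need not reflect all ribosomal RNA. As a share of all counts, ribosomal RNA took 0.119, 0.156 and 0.129% in CD4-positive and 0.132, 0.136 and 0.107% in CD4-negative libraries, so the low shares of CD4-positive replicate 1 and CD4-negative replicate 3 were mainly those of messenger RNA.

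Complex I, NADH dehydrogenase, passes electrons from NADH to ubiquinone, and its 7 mitochondrial subunits included 4 of the 5 members with the widest range over libraries. mt-Nd5, a proton-pumping subunit, stood at 220.3, 4304 and 3206 CPM in CD4-positive and 2604, 3688 and 148 CPM in CD4-negative libraries. mt-Nd4, a related pumping subunit, stood at 519.6, 5241 and 4059 CPM in CD4-positive and 3248, 4824 and 333 CPM in CD4-negative libraries. mt-Nd2, the third of these pumping subunits, stood at 318, 3353 and 3106 CPM in CD4-positive and 2262, 3456 and 218 CPM in CD4-negative libraries. In each of the 3 the same 2 libraries, CD4-positive replicate 1 and CD4-negative replicate 3, were far below the other 4, and the groups overlapped. The spread of mt-Nd5 was 19.5-fold within the CD4-positive and 25.0-fold within the CD4-negative group, while the group means were 2577 ± 2113 against 2146 ± 1814 CPM (log2 0.26, SE 1.19, unadjusted p = 0.830).

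mt-Nd1, which joins the membrane arm to the arm that binds NADH, stood at 689, 4410.3 and 4877 CPM in CD4-positive and 3017, 4537 and 593 CPM in CD4-negative libraries. Its spread was smaller than that of mt-Nd5, 7.08-fold within the CD4-positive and 7.65-fold within the CD4-negative group. mt-Nd4l, a small membrane subunit read from the same RNA as mt-Nd4, stood at 15.9, 198 and 72.7 CPM in CD4-positive and 64.8, 122 and 10.1 CPM in CD4-negative libraries as counted and, with its copy, at 25.4, 556 and 377 CPM in CD4-positive and 287, 475 and 10.3 CPM in CD4-negative libraries. With the copy its highest library was 54.2 times its lowest, against 19.5 times as counted. mt-Nd3, a small subunit near the ubiquinone site, differed much less between libraries. With its copy it stood at 334, 472 and 570.4 CPM in CD4-positive and 423, 460.1 and 349.7 CPM in CD4-negative libraries, a 1.71-fold range. Its lowest values with the copy were again in CD4-positive replicate 1 and CD4-negative replicate 3. As counted, without its copy, mt-Nd3 was at 17.3 to 58.5 CPM and highest in the same libraries in which mt-Nd5 was lowest.

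mt-Nd6 is the only messenger RNA read from the light-strand promoter, so it comes from another precursor than the rest. It stood at 304, 1159 and 874 CPM in CD4-positive and 818, 1177 and 251 CPM in CD4-negative libraries, again lowest in CD4-positive replicate 1 and CD4-negative replicate 3. The range was 4.69-fold, well below that of mt-Nd5, which lies next to it on the opposite strand. The ratio of mt-Nd5 to mt-Nd6 per base of length was 0.206, 1.06 and 1.04 in CD4-positive and 0.906, 0.891 and 0.168 in CD4-negative libraries (exact permutation p = 0.5). Counts per base of the pair were thus about equal in the 4 libraries of higher share, and those of mt-Nd6 were several times higher in the other 2. The strand setting of the counting is not given and the kit selects polyadenylated RNA. These ratios therefore need not reflect the levels of the 2 transcripts. As a share of mitochondrial messenger RNA counts mt-Nd6 was among the steadiest: 2.44, 2.35 and 1.79% in CD4-positive and 2.46, 2.40 and 1.95% in CD4-negative libraries.

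mt-Cytb, cytochrome b, the single mitochondrial subunit of complex III, which passes electrons from ubiquinol to cytochrome c, stood at 1678, 8711 and 8384 CPM in CD4-positive and 5641, 8602 and 1396 CPM in CD4-negative libraries. As counted it was second to mt-Co1, with 14.9% of mitochondrial counts on average. With copies added it held 9.31%, below mt-Co1, mt-Co2, mt-Co3 and mt-Atp6. The 2 libraries of low share were again the lowest, and the range was 6.24-fold.

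Complex IV, cytochrome c oxidase, reduces oxygen, and with copies added one of its 3 mitochondrial subunits was the most abundant member per length in every library: mt-Co1 in CD4-positive replicates 2 and 3 and CD4-negative replicates 1 and 2, mt-Co2 in CD4-positive replicate 1 and mt-Co3 in CD4-negative replicate 3. mt-Co1, the catalytic subunit, stood at 7229, 19560.1 and 21430.3 CPM in CD4-positive and 14125, 20388 and 8357 CPM in CD4-negative libraries as counted and at 9007, 22555 and 23735 CPM in CD4-positive and 16296, 23346 and 10107 CPM in CD4-negative libraries with its copy. mt-Co2, which receives electrons from cytochrome c, stood at 378, 441 and 609 CPM in CD4-positive and 295, 596 and 663 CPM in CD4-negative libraries as counted. With its copy mt-Co2 reached 4032, 8242 and 8629 CPM in CD4-positive and 5904, 8704 and 5365 CPM in CD4-negative libraries. The copy thus changed the order of the libraries for mt-Co2, from highest to second lowest in CD4-negative replicate 3. mt-Co3, a structural subunit, stood at 832, 298 and 369 CPM in CD4-positive and 194, 285 and 445 CPM in CD4-negative libraries as counted and at 4579.6, 5838 and 8992 CPM in CD4-positive and 4954, 5990.3 and 6711 CPM in CD4-negative libraries with its copy. With copies the range was 2.64-fold for mt-Co1, 2.16-fold for mt-Co2 and 1.96-fold for mt-Co3, and CD4-negative replicate 3 had the second highest mt-Co3 of the 6.

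Complex V, ATP synthase, has 2 mitochondrial subunits, read from the same RNA. mt-Atp6, the channel subunit through which protons pass, stood at 187, 333 and 701 CPM in CD4-positive and 314, 357 and 385 CPM in CD4-negative libraries as counted and at 2185, 7706 and 8782 CPM in CD4-positive and 5718, 7498 and 2481 CPM in CD4-negative libraries with its copy. mt-Atp8, a small subunit of the stalk region, had no copy among those found here and stood at 35.0, 1193 and 1185 CPM in CD4-positive and 689, 973 and 21.1 CPM in CD4-negative libraries. As counted, mt-Atp8 had the widest range of the tested members, 34.0-fold within the CD4-positive and 46.1-fold within the CD4-negative group, and its low values were in CD4-positive replicate 1 and CD4-negative replicate 3. Although mt-Atp8 and mt-Atp6 share an RNA, their counts differed unequally between libraries. The 2 genes are 204 and 681 bases long, and the part of gene length in the ratios that follow was not tested. The ratio per base of length of mt-Atp8 to mt-Atp6 with its copy was 0.0535, 0.517 and 0.450 in CD4-positive and 0.402, 0.433 and 0.0284 in CD4-negative libraries (exact permutation p = 0.5 between the groups). The other pair on a shared RNA, mt-Nd4l over mt-Nd4 with copies, gave 0.226, 0.490 and 0.427 in CD4-positive and 0.408, 0.454 and 0.143 in CD4-negative libraries, with the same libraries lowest. As counted, this second ratio was 0.142, 0.175 and 0.0831 in CD4-positive and 0.0926, 0.118 and 0.141 in CD4-negative libraries, lowest in CD4-positive replicate 3, so its pattern depended on the copies. As counted, mt-Atp8 over mt-Atp6 was 0.625, 11.95 and 5.64 in CD4-positive and 7.32, 9.09 and 0.183 in CD4-negative libraries, again lowest in CD4-positive replicate 1 and CD4-negative replicate 3.

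The 22 transfer RNA rows held 5 counts over all 6 libraries. mt-Tc had 3 counts and mt-Tn 1 in CD4-positive replicate 1, and mt-Ty had 1 in CD4-positive replicate 2. The other 19 rows were at 0 in every library, and a count of 0 still allows 3 counts of the total, which is 0.0564 to 0.0741 CPM in these libraries, for counting error alone. These genes are 59 to 75 bases long and the kit selects polyadenylated RNA, so the values say nothing of mature transfer RNA.

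**Figure D3:**
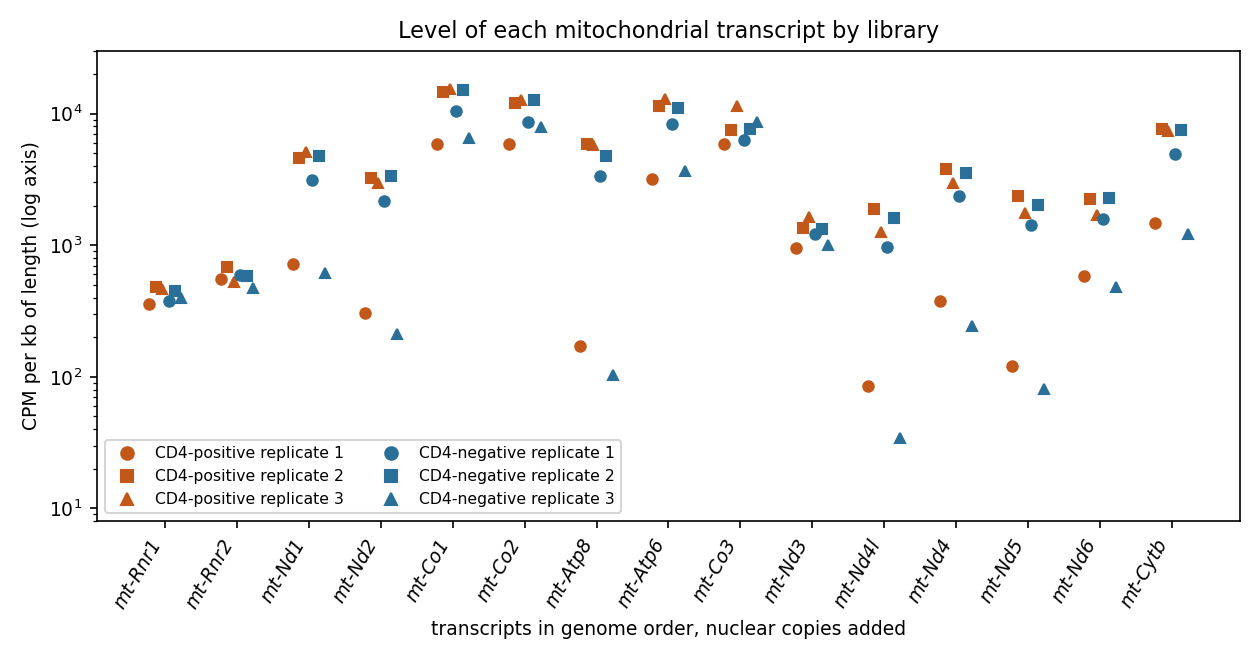
Level of each of 15 mitochondrial transcripts (CPM per kb of annotated length, log axis, nuclear copies added) in the 6 libraries, in genome order; colour is the CD4 group and shape the replicate. mt-Rnr1 and mt-Rnr2 keep the 6 libraries close together, while for mt-Nd2, mt-Atp8, mt-Nd4l, mt-Nd4 and mt-Nd5 CD4-positive replicate 1 and CD4-negative replicate 3 lie more than 10-fold below the highest library.

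Per kilobase of annotated length and with copies added, mt-Co1 was at 5830.1, 14599 and 15362 CPM per kb in CD4-positive and 10548, 15111 and 6542 CPM per kb in CD4-negative libraries. On the same scale mt-Co2 was at 5895, 12049.5 and 12616 CPM per kb in CD4-positive and 8632, 12725 and 7844 CPM per kb in CD4-negative libraries. mt-Atp6, mt-Co3 and mt-Cytb came next, at 1220 to 12896 CPM per kb over the libraries. mt-Nd5 was at 121, 2359 and 1757 CPM per kb in CD4-positive and 1428, 2022 and 81.0 CPM per kb in CD4-negative libraries, below mt-Nd1 in every library. mt-Rnr1 and mt-Rnr2, at 355 to 679 CPM per kb, were under every messenger RNA in the 4 libraries of higher share. In CD4-positive replicate 1 and CD4-negative replicate 3 mt-Nd2, mt-Atp8, mt-Nd4l and mt-Nd5 were instead below both ribosomal RNAs, and mt-Nd4 was below mt-Rnr2.

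The mix within the mitochondrial counts also differed more between libraries of one group than between group means. Adding the copies to this mix was chosen after the data were seen. Of mitochondrial messenger RNA counts, copies added, complex IV took 73.6, 49.7 and 53.8% in CD4-positive and 52.3, 51.6 and 79.3% in CD4-negative libraries. Complex I took 10.1, 26.5 and 22.3% in CD4-positive and 24.4, 25.3 and 6.80% in CD4-negative libraries. CD4-positive replicate 1 and CD4-negative replicate 3 stood apart in both, with high complex IV and low complex I, and the groups overlapped. Group means for complex IV were 59.0% ± 12.8 against 61.1% ± 15.8, exact permutation p = 0.7, and for complex I 19.6% ± 8.51 against 18.8% ± 10.4, exact permutation p = 0.8 (SD, n = 3). Complex III took 7.01, 11.8 and 10.9% in CD4-positive and 10.9, 11.7 and 4.99% in CD4-negative libraries. Complex V took 8.94% to 12.97%, with groups at 11.4% ± 1.93 against 10.9% ± 1.77, exact permutation p = 0.6. Of all mitochondrial counts with copies, ribosomal RNA took 4.81, 2.03 and 1.63% in CD4-positive and 2.45, 1.79 and 3.88% in CD4-negative libraries, with groups at 2.82% ± 1.73 against 2.71% ± 1.07, exact permutation p = 0.9. Without the copies ribosomal RNA took 2.54% to 8.85%, and complex IV 41.2% to 73.5% of messenger RNA counts, with the same 2 libraries highest.

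**Figure D4:**
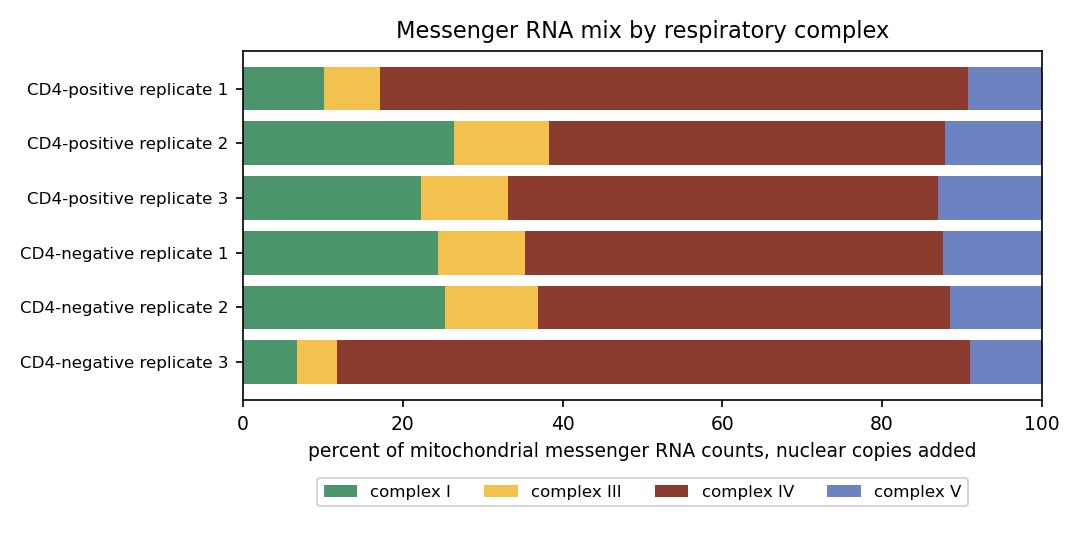
Percent of mitochondrial messenger RNA counts, nuclear copies added, on the subunits of complexes I, III, IV and V in each of the 6 libraries. Complex IV takes 73.6% and 79.3% in CD4-positive replicate 1 and CD4-negative replicate 3, and 49.7% to 53.8% in the other libraries.

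The likeness of 2 libraries in this mix was described by the median, over the 15 counted members, of the absolute log2 ratio of their shares of mitochondrial counts, copies added. CD4-positive replicate 2 and CD4-negative replicate 2 were the most alike, at 0.0534. CD4-positive replicates 2 and 3 and CD4-negative replicates 1 and 2 differed among themselves by 0.0534 to 0.210. CD4-positive replicate 1 and CD4-negative replicate 3 differed from each other by 0.428 and from each of the other 4 by 0.968 to 1.27. These values are a description of 6 libraries, with no test.

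Of all genes tested, 2004 averaged 100 CPM or more. Among them the median ratio of the highest to the lowest library was 1.55, and 15 genes (0.749%) exceeded 10. Of these 15, 4 were mitochondrial, mt-Nd2, mt-Atp8, mt-Nd4 and mt-Nd5, out of 13 members at that level, and 1 was the copy Gm10222. The others were Cd4, the sort marker, Gzma, and the early response and heat shock genes Fos, Jun, Junb, Dusp1, Hspa1a, Hspa1b, Tnfaip3 and Ppp1r15a. These names were chosen after the values were seen.

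The study set NKT1 cells with the CD4 coreceptor against those without it, and in this comparison no mitochondrial transcript was called. By edgeR's quasi-likelihood test with Benjamini-Hochberg adjustment over 12760 genes, 0 of 15 tested members had an adjusted p under 0.05, where 0.212% of all genes tested did, and 0 had an unadjusted p under 0.05, where 4.44% of all genes did. The other 22, the transfer RNAs, had too few counts to be tested. DESeq2, which called 0.886% of the genes it gave an adjusted p, and limma-voom with quality weights, which called 1.41%, called 0 members too. The groups overlapped for all 15 tested members, as CPM and as shares of mitochondrial counts, with and without copies, where 9.41% of all genes tested had groups that did not overlap. A missed threshold does not show equal levels: the standard errors of the log2 differences ran from 0.18 for mt-Rnr1 to 1.36 for mt-Atp8.

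Of the 15 tested members 13 had a log2 difference above 0 (median 0.21), against 48.9% of all genes tested (median -0.0059). The members share libraries and precursors and are not separate observations of the groups. The difference with the smallest p was that of mt-Co3, 499 ± 290.4 against 308 ± 127 CPM (log2 0.70, SE 0.45, unadjusted p = 0.163, adjusted p = 1.0). With its copy added mt-Co3 was at 6469.8 ± 2273 against 5885 ± 883 CPM (log2 0.14, SE 0.29, unadjusted p = 0.647). mt-Nd3 was below 0 as counted (log2 -0.47, SE 0.46, unadjusted p = 0.337) and above 0 with its copy (log2 0.16, SE 0.23, unadjusted p = 0.509), and so was mt-Co2 (-0.12 and 0.07 on the log2 scale). These signs rested on single libraries: 5 of the 15 differences were above 0 without CD4-negative replicate 3, 6 without CD4-positive replicate 2 and 7 without CD4-positive replicate 3. Without CD4-negative replicate 3 mt-Co3 as counted had a log2 difference of 1.06 (unadjusted p = 0.0492, adjusted p = 0.804 by edgeR). In that fit 1 of 15 members, and 810 genes in all, had an unadjusted p under 0.05. For the share of counts, the difference in means of 0.56 percentage points (CD4-positive minus CD4-negative) became -0.44 without CD4-negative replicate 3, -0.099 without CD4-positive replicate 2 and -0.052 without CD4-positive replicate 3, and 1.82 without CD4-positive replicate 1. Replicate 3 of each group carries another library naming scheme, and within the schemes the difference was -1.05 points (2 libraries against 2) and 3.77 points (1 against 1).

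**Figure D5:**
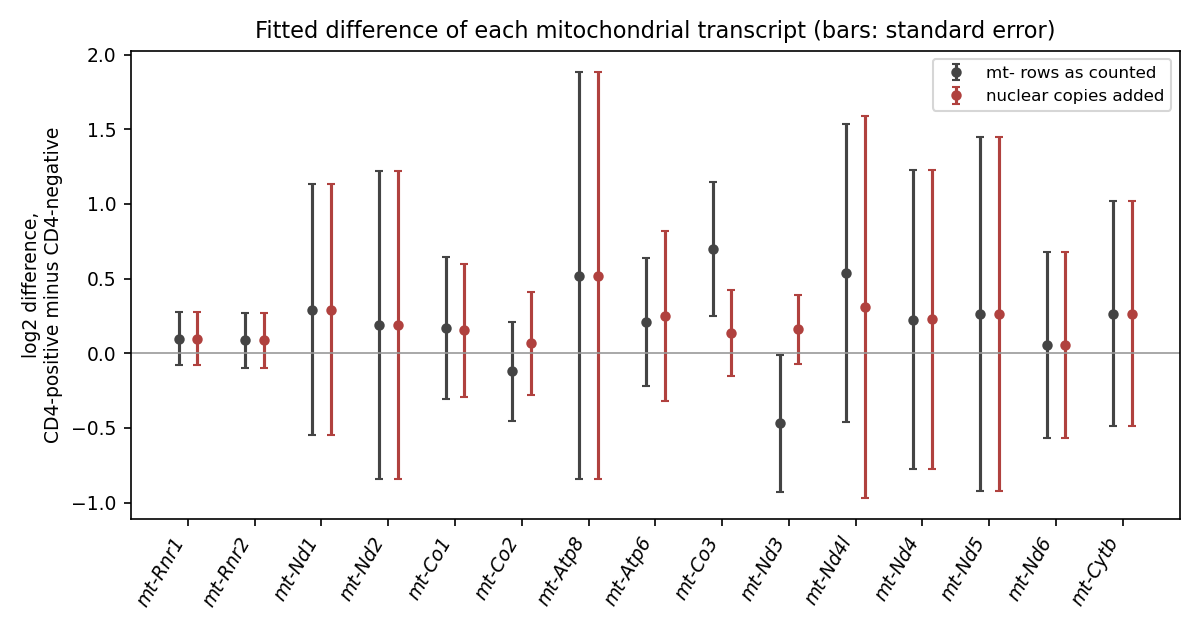
Fitted log2 difference, CD4-positive minus CD4-negative, with its standard error (bars) for 15 mitochondrial transcripts in genome order, as counted (grey) and with nuclear copies added (red). The differences lie between -0.47 and 0.70, and only mt-Co2, mt-Co3, mt-Nd3 and mt-Nd4l shift by more than 0.1 when copies are added.

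Of the nuclear genes that make, cut and keep mitochondrial RNA, 6 were followed whatever their result. Polrmt, the mitochondrial RNA polymerase, stood at 20.7, 24.9 and 23.1 CPM in CD4-positive and 26.3, 28.0 and 23.0 CPM in CD4-negative libraries. Tfam, which packages mitochondrial DNA and starts its transcription, stood at 66.8, 60.6 and 67.6 CPM in CD4-positive and 58.3, 58.4 and 73.3 CPM in CD4-negative libraries. Elac2, the nuclease that cuts the 3′ ends of mitochondrial transfer RNAs, stood at 38.4, 43.0 and 45.2 CPM in CD4-positive and 41.5, 45.2 and 42.6 CPM in CD4-negative libraries. In CD4-positive replicate 1 and CD4-negative replicate 3, the libraries of low mitochondrial share, these 3 genes lay close to the other libraries, with Tfam highest in CD4-negative replicate 3 and Polrmt lowest in CD4-positive replicate 1. Lrpprc, which stabilises mitochondrial messenger RNA, was at 69.3 ± 2.68 against 68.1 ± 3.65 CPM (SD, n = 3), the poly(A) polymerase Mtpap, lowest in the libraries of low mitochondrial share (25.6 and 24.3 CPM), at 30.5 ± 4.36 against 29.9 ± 4.83 CPM and the coactivator Ppargc1b at 8.64 ± 3.65 against 8.39 ± 2.90 CPM, and none was called. Ppargc1b ranged from 4.55 to 11.6 CPM and was lowest in both replicate 3 libraries.

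Of the genes of mitochondrial DNA transcription and replication, 0 of 21 tested were called, and the 2 with the smallest p were Tfb1m, a ribosomal RNA methyltransferase (5.30 ± 0.787 against 6.88 ± 1.05 CPM), and Tefm, the elongation factor (4.01 ± 1.01 against 2.996 ± 0.660 CPM). Of mitochondrial RNA processing and transfer RNA modification 0 of 18 were called, and the 2 with the smallest p were 1110008L16Rik (9.83 ± 0.949 against 7.62 ± 0.772 CPM) and Qtrtd1, a subunit of the enzyme that inserts queuine (16.8 ± 2.96 against 13.4 ± 1.44 CPM). Of RNA stability, tailing and decay 0 of 22 were called, led by Grsf1, an RNA granule protein (48.7 ± 2.25 against 55.7 ± 4.16 CPM), and Slirp, the partner of Lrpprc (12.6 ± 2.15 against 16.6 ± 6.86 CPM). Tefm ranged from 2.24 to 4.84 CPM and Slirp from 10.3 to 24.5 CPM over the libraries, Tefm lowest and Slirp highest in CD4-negative replicate 3. These 3 lists had 11, 8 and 13 members above 0, where 48.9% of all genes were. Of biogenesis regulators 0 of 17 were called, with Crtc2 at 74.7 ± 5.60 against 84.7 ± 10.2 CPM and Sirt3 at 5.21 ± 1.42 against 6.01 ± 1.14 CPM. The 22 listed regulators summed to 854, 1135 and 939.5 CPM in CD4-positive and 1136, 1159.8 and 706 CPM in CD4-negative libraries, lowest in the libraries of low mitochondrial share. Of import, matrix and outer membrane proteins 0 of 30 were called, with the protease Clpp at 22.9 ± 7.78 against 29.3 ± 12.4 CPM and the chaperonin Hspe1 at 118 ± 26.0 against 142 ± 52.1 CPM. This list summed to 4089.7 and 4260.4 CPM in CD4-positive replicate 1 and CD4-negative replicate 3, and to 3510.1 to 3625 CPM in the other libraries. The part of either sum in the mitochondrial values was not tested. Of mitophagy and stress response genes 0 of 12 were called, with asparagine synthetase Asns at 2.16 ± 0.480 against 1.004 ± 0.325 CPM (unadjusted p = 0.0241, adjusted p = 0.840 by edgeR) and the mitophagy receptor Fundc1 at 42.2 ± 5.20 against 38.6 ± 2.91 CPM.

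Summed nuclear subunits of the same complexes ran the other way across libraries from most, not all, mitochondrial subunits with copies added. mt-Co3 with its copy was second highest in CD4-negative replicate 3 (6711 CPM). As counted, mt-Nd3, mt-Co2 and mt-Co3 were each highest in CD4-negative replicate 3 or CD4-positive replicate 1. The summed level of 36 nuclear complex I genes was 2358, 1695 and 1895 CPM in CD4-positive and 1881, 1749.6 and 3016 CPM in CD4-negative libraries. That of 11 nuclear complex IV genes was 1911, 1366 and 1643 CPM in CD4-positive and 1541, 1464 and 2362 CPM in CD4-negative libraries. Both sums were highest in CD4-negative replicate 3 and CD4-positive replicate 1, the libraries in which mitochondrial complex I transcripts with copies added were lowest. The sums of 9 complex III genes and 15 complex V genes had the same 2 libraries highest, at 1289 and 1039 CPM and at 4350 and 3703 CPM. None of these genes was called. Of complex I 2 of 36 members had a difference above 0 (median -0.16), of complex III 2 of 9 (-0.066), of complex IV 2 of 11 (-0.087) and of complex V 4 of 15 (-0.10). Of all genes tested, 48.9% were above 0. These genes share libraries and are not separate observations of the groups. The sum of each complex was highest in CD4-negative replicate 3, and the signs without that library were not tested. Those with the smallest p were Ndufb3 (50.2 ± 5.66 against 59.7 ± 9.02 CPM) and Ndufs5 (23.5 ± 5.04 against 28.2 ± 7.71 CPM), Uqcr11 (51.9 ± 16.6 against 64.4 ± 33.5 CPM) and Uqcr10 (43.0 ± 6.98 against 48.0 ± 12.9 CPM), Cox5b (110.4 ± 19.3 against 124 ± 34.8 CPM) and Cox6c (90.6 ± 16.6 against 101 ± 30.0 CPM), and Atp5h (241 ± 65.4 against 298 ± 139.9 CPM) and Atp5l (104 ± 22.6 against 119 ± 25.4 CPM).

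The proteins of the mitochondrial ribosome, which translates the 13 messenger RNAs, followed the nuclear pattern. The 48 genes of the large subunit summed to 1828, 1398 and 1506 CPM in CD4-positive and 1533, 1473 and 2146 CPM in CD4-negative libraries, and the 29 of the small subunit to 833 to 1261 CPM with the same 2 libraries highest. None was called, and 6 of 48 and 6 of 29 had a difference above 0, with Mrpl55 (8.75 ± 0.937 against 11.2 ± 3.08 CPM), Mrpl41 (36.3 ± 5.21 against 46.1 ± 16.6 CPM), Mrps12 (19.5 ± 1.90 against 23.1 ± 4.60 CPM) and Mrps15 (40.9 ± 3.32 against 45.7 ± 2.97 CPM) of the smallest p. Of 23 aminoacyl-tRNA synthetase and charging genes 0 were called and 8 lay above 0, with Hars2 at 28.8 ± 0.252 against 34.1 ± 7.33 CPM and Tars2 at 31.4 ± 4.39 against 37.6 ± 9.75 CPM. Among all genes tested 48.9% lay above 0. The sums of both ribosomal subunits and of the synthetase genes (1371 CPM) were highest in CD4-negative replicate 3. How far these signs rest on that library was not tested.

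Some other features of the libraries moved with the mitochondrial share and some did not, and their part in these results was not tested. As a share of all counts, cytosolic ribosomal protein genes took 13.4, 9.39 and 10.6% in CD4-positive and 10.7, 9.50 and 15.1% in CD4-negative libraries. Genes with a count numbered 13787 in CD4-negative replicate 3 and 15293 to 16267 in the others, at totals of 40480463 to 53145848 counts. This number did not follow the share: it was 15634 in CD4-positive replicate 1 and 15293 in CD4-positive replicate 3. The T cell receptor subunit Cd3e stood at 260.0, 474 and 368 CPM in CD4-positive and 443, 493 and 190.2 CPM in CD4-negative libraries, lowest in the libraries of low mitochondrial share. Dissociation and heat stress genes were high in both replicate 1 libraries instead, summing to 8125, 4303 and 3392 CPM in CD4-positive and 9337, 4389.6 and 4146 CPM in CD4-negative libraries, with 0 of 14 called and Fos at 127, 17.2 and 18.2 CPM in CD4-positive and 419, 22.9 and 10.1 CPM in CD4-negative libraries and Egr1 at 111 ± 39.4 against 66.7 ± 48.8 CPM. Of the nuclear-retained noncoding RNAs 0 of 4 tested were called, and Neat1 was high in both replicate 3 libraries (32.2, 30.1 and 96.7 CPM in CD4-positive and 34.6, 43.0 and 143 CPM in CD4-negative libraries), with Xist at 141 ± 32.1 against 126 ± 12.8 CPM.

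The defining genes matched the labels. Cd4 stood at 508, 401 and 449.9 CPM in CD4-positive and 15.99, 10.9 and 41.2 CPM in CD4-negative libraries. PLZF (Zbtb16) was present in all 6 libraries, at 151, 98.1 and 70.2 CPM in CD4-positive and 60.03, 63.7 and 62.0 CPM in CD4-negative libraries. Its groups did not overlap (log2 0.78, SE 0.27, unadjusted p = 0.0222, adjusted p = 0.804 by edgeR). T-bet (Tbx21) was highest in CD4-negative replicate 3 and CD4-positive replicate 1, at 639 and 431 CPM against 297 to 422 CPM elsewhere. The cytokine receptor subunit Il2rb was lowest in the same 2 libraries, at 1272 and 1282 CPM against 1662 to 2279.6 CPM. Their part in the mitochondrial values was not tested. All 10 iNKT and T cell identity genes had counts in every library. Of these, 0 were called and 3 had groups that did not overlap, all higher in CD4-positive libraries, where 9.41% of all genes did not overlap. Sums of markers of some other cells separated the CD4 groups. The 10 B cell genes, of which 2 to 5 had no count in a library, summed to 63.3, 55.4 and 79.2 CPM in CD4-positive and 122, 115 and 112 CPM in CD4-negative libraries. Most of this sum was Ighm, at 57.6, 50.9 and 74.2 CPM in CD4-positive and 112, 107 and 102 CPM in CD4-negative libraries. The 11 myeloid genes, of which 4 to 8 had no count in a library, summed to 1.01, 1.23 and 1.16 CPM in CD4-positive and 2.02, 1.91 and 2.30 CPM in CD4-negative libraries. These values are low, and 4 of the genes could be tested, with 0 above 0. Only 1 of them had groups that did not overlap, Itgax (0.046 ± 0.041 against 0.62 ± 0.30 CPM). The 10 stroma genes, of which 1 to 6 had no count in a library, summed to 33.6, 37.1 and 34.1 CPM in CD4-positive and 21.3, 19.9 and 19.3 CPM in CD4-negative libraries. Most of this sum was Pecam1, at 30.6, 33.8 and 31.4 CPM in CD4-positive and 16.3, 15.2 and 16.7 CPM in CD4-negative libraries. Of the 6 stroma genes tested 4 lay above 0, and Col3a1 lay below (log2 -1.85, SE 1.32). Whether the sums reflect numbers of such cells was not tested. The 8 NK cell genes, which NKT1 cells share in part, summed to 1303, 1077 and 1444 CPM in CD4-positive and 2416, 2129 and 3782 CPM in CD4-negative libraries. Gzma alone held 163 ± 47.6 against 1243 ± 621 CPM of this sum. The B cell, myeloid and NK cell sums were higher and the stroma sum lower in CD4-negative libraries, with no overlap. Of the 7 NK cell genes tested 0 were called, and 5 had groups that did not overlap, all lower in CD4-positive libraries, where 9.41% of all genes did not overlap. The 10 immature thymocyte genes summed to 29.7 to 225 CPM, highest in the replicate 3 libraries, and the 7 red cell genes to 276 to 701 CPM. None of these sums had CD4-positive replicate 1 and CD4-negative replicate 3 together as its lowest or highest libraries.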

How the data were processed

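Per the labels' protocols, RNA came from the RNeasy Plus Micro Kit and libraries from the TruSeq Stranded mRNA kit, read as pairs on a HiSeq4000. The table the authors deposited holds estimated counts per gene, not normalised. The submitters' processing notes list STAR, Picard, RSEM and mm10 with no versions. Columns were matched to samples by library name, and totals were 40480463 to 53145848 counts. Members, lists and tests were chosen with earlier results of these data known. Counts were rounded and tested in R 4.3.3 with edgeR 4.0.16 (filterByExpr, 12760 genes; TMM; robust quasi-likelihood test on group, 2-sided; Benjamini-Hochberg over all genes). The SE was derived from the F statistic. DESeq2 1.42.0 and limma 3.58.1 (voom with quality weights) were alternatives, with other scalings, filters, a replicate block, the naming scheme as a term and each library left out. Shares were compared by exact permutation (scipy 1.17.1). Copies are pseudogene rows aligned by blastn 2.17.0 to a member at 99% identity or more over 90% of their length; mismatches were counted over the whole copy. Members with at least 1% of mitochondrial counts on average were given library by library (mt-Nd3 and mt-Nd4l, below it, were added after their values were seen), and of each pathway list the 2 genes of smallest p, with 6 fixed ones (Polrmt, Tfam, Lrpprc, Elac2, Mtpap and Ppargc1b). Of 47643 identifiers 47224 were found in GENCODE M21. P-values measure the spread between libraries, which may be technical. On simulated counts over 12502 genes edgeR recovered 27% of 2-fold and 97% of 4-fold changes, with 8 false among 132 calls. Those changes were planted in genes drawn at random. The rates therefore do not describe members of wide spread, such as mt-Atp8 (SE 1.36).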

Additional observations from a re-analysis of the deposited data

How the results depend on the processing

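No mitochondrial transcript was called under any of 17 alternatives, 6 of which left out a library (count 0 to 0). The number of genes called was 27 and varied: 67 without the filter on low counts, 162 by DESeq2, 180 by limma-voom with quality weights, 11 with the naming scheme as a term and 0 with the replicate block (531 genes at an unadjusted p under 0.05). It was 0 to 44 with a library left out (0 without any library but CD4-negative replicate 3, 44 without that one; 439 to 810 genes at an unadjusted p under 0.05). Nothing in the labels says that replicate numbers pair the libraries, though both replicate 3 libraries share a naming scheme. Deviations from group means correlated by -0.205, 0.657 and 0.00377 for numbers 1, 2 and 3, so pairing was not assumed. Single genes did go with the number (Malat1 at 224 and 226 CPM in replicate 3 and 55.7 to 60.4 CPM elsewhere). With 3 libraries in each group the replicate block cannot change the difference in mitochondrial share of 0.56 points, only its p (exact sign-flip p = 0.75, smallest possible 0.25). That difference was 3.77 points within the naming scheme of the replicate 3 libraries, and -0.44 to 1.82 with a library left out. The complex V share differed by -0.046 points and, per base of length, by 0.85. With a library left out the class differences ran from -2.05 to 1.59 points for ribosomal RNA, -6.90 to 7.22 for complex I, -1.13 to 2.31 for complex III, -10.0 to 7.99 for complex IV, -0.52 to 0.52 for complex V and -0.23 to 0.13 for the light strand.

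Log2 differences of single members changed sign in these settings, in none of which they were called; the cause was not tested. By limma-voom with quality weights they were mt-Nd1 -0.021, mt-Nd2 -0.18, mt-Co2 0.22, mt-Atp8 -0.094, mt-Nd4 -0.11, mt-Nd5 -0.19 and mt-Nd6 -0.11. With the mitochondrial total as library size they were mt-Rnr1 -0.10, mt-Co1 -0.071, mt-Atp6 -0.35 and mt-Nd6 -0.054. With copies added they were mt-Co2 0.066 and mt-Nd3 0.16, and with copies and the mitochondrial total mt-Rnr1 -0.0051, mt-Co1 -0.0039, mt-Co3 -0.11, mt-Nd3 0.041 and mt-Nd6 -0.036. With a library left out the differences ran from 0.019 to 0.22 for mt-Rnr1, -0.034 to 0.16 for mt-Rnr2, -0.18 to 0.88 for mt-Nd1, -0.34 to 0.86 for mt-Nd2, -0.10 to 0.52 for mt-Co1, -0.40 to 0.10 for mt-Co2, -0.043 to 1.18 for mt-Atp8, -0.43 to 0.55 for mt-Atp6, 0.11 to 1.06 for mt-Co3, -0.99 to -0.026 for mt-Nd3, -0.57 to 1.35 for mt-Nd4l, -0.30 to 0.87 for mt-Nd4, -0.33 to 0.90 for mt-Nd5, -0.35 to 0.54 for mt-Nd6 and -0.18 to 0.83 for mt-Cytb. Adding the copies to single members and to the class mix, and fitting single members to the mitochondrial total were chosen after seeing the data. Depth does not limit the shares, which rest on 536697 to 2722386 mitochondrial counts a library; 3 libraries a group do.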
